A study of Ovis aries with 14 samples.

Results

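AURKA, CDK1, TYMS and PCNA are 4 genes of the dividing cell that were read by 5 probes on a single-colour Agilent array of the sheep (Ovis aries), out of 15008 probes and 964 named genes on that array. The probes were chosen by name alone, as every probe whose listed or matched gene symbol is AURKA, CDK1, TYMS or PCNA. The RNA came from the hypothalamus of chronically catheterised fetal sheep in late gestation, at about 130 days. In the direct arm the fetus itself received an intravenous infusion for 2 days, of vehicle (n = 4) or of triclosan, 250 µg daily (n = 4). In the indirect arm the infusion of 2 days went into the ewe, as vehicle or as triclosan, 100 µg per kg per day (n = 3). Triclosan is an antibacterial additive of soaps and other personal care products. The maternal vehicle group has 3 deposited arrays, but replicate 3 equals 0.6 times replicate 1 plus 0.4 times replicate 2 at all 15744 spots, so it was left out and this group has n = 2. The doses of the arms differ in amount and in unit. The sources used here do not say whether each array is a pregnancy of its own, so the p-values measure the spread between these samples, which may be technical.

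CDK1 is the kinase that drives a cell into mitosis once it has bound cyclin B, and AURKA is the kinase that matures the centrosomes and builds the spindle. TYMS makes thymidylate, the DNA-specific nucleotide, and PCNA is the sliding clamp that holds DNA polymerase on the replicating strand and that also works in DNA repair. In a late-gestation brain most neurons have left the cell cycle, and such transcripts are usually ascribed to glial precursors, blood vessel cells and the remaining ventricular progenitors. In bulk tissue fewer dividing cells and less RNA per dividing cell cannot be told apart.

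The probe sequences are printed because 2 of the 4 genes are not listed under their present names and because the PCNA probes are not independent of each other. CDK1 is listed under its older name CDC2, and TYMS only under a locus number. The capitals in the PCNA probes mark the 30 bases that they share, so they read neighbouring and overlapping stretches of one transcript. No other probe on the array shares 20 bases with any of them. Also shown are an unnamed probe that the scanner files place in the same transcript cluster as the TYMS probe, and a probe that the files describe as bovine G2/mitotic-specific cyclin-B1, the partner of CDK1. Both were picked after earlier results were known, and they are given beside the 5 probes and not counted with them. All sequences are written 5′ to 3′ as in the scanner files.
AURKA: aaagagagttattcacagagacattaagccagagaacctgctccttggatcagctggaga
CDK1: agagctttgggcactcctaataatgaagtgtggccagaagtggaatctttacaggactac
cyclin-B1 probe: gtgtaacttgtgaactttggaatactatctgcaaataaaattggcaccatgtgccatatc
TYMS: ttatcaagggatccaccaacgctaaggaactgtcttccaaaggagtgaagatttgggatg
unnamed probe of the TYMS cluster: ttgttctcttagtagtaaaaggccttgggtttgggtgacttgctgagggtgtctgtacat
PCNA, probe at 801: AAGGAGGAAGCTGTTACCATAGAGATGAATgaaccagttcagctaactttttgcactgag
PCNA, probe at 771: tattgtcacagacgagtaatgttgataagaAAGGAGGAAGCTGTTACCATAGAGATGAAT
The numbers 801 and 771 are the positions at which the PCNA probes start in the transcript record of the array design. The scanner files give no genome coordinates for these probes and name no genome build. The GC content is 45.0% for the AURKA, CDK1 and TYMS probes, 41.7% for the PCNA probe at 801 and 36.7% for the one at 771.

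Every spot of these 7 probes was well above background on all 13 arrays used, and 0 carried an outlier mark. Array medians of the processed signal were 236 to 380, with 83.3% to 90.1% of spots well above background and 0 saturated spots. The processed signal of AURKA ran from 72.9 to 209, that of CDK1 from 45.5 to 222 and that of TYMS from 91.2 to 334. The PCNA probe at 801 gave 1494 to 2381. Slides 1, 2 and 3 held the arrays of those replicate numbers, slide 3 also held fetal vehicle replicate 4, and slide 4 held nothing but fetal triclosan replicate 4. Of 10 measured neuropeptide and hormone genes of hypothalamic neurons, 9 were well above background on all 13 arrays, and GNRH1 on 11. Below, a level is the log2 processed signal minus the 75th percentile of its array, and it can be compared between arrays but not between probes. Differences are triclosan minus vehicle on that log2 scale, with the standard error (SE) of one limma fit to 13740 probes. A call is an adjusted p under 0.05 by the Benjamini-Hochberg method over all of these probes.

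The direct arm asks what differs in the fetal hypothalamus when the fetus itself receives triclosan. None of the 5 probes passed the test in limma, against 18.1% of all 13740 probes (11.3% lower and 6.8% higher). At an unadjusted p under 0.05 there was 1 of 5, against 33.1% of all probes. That one was PCNA, whose treated arrays all lay above the vehicle arrays, with a log2 difference of 0.48 (SE 0.16, n = 4 against 4, adjusted p 0.0519). For AURKA, CDK1 and TYMS the treated arrays lay on both sides of the vehicle arrays.

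AURKA stood at −4.41, −3.90, −3.30 and −3.64 in the 4 fetal vehicle arrays. With fetal triclosan it stood at −3.98, −4.50, −3.22 and −3.84. Both groups covered almost the same span, and replicate 3 was the highest in each. The log2 difference was −0.07 (SE 0.28, 95% interval −0.68 to 0.54, limma adjusted p 0.881).

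CDK1 levels with fetal vehicle were close together, at −3.48, −3.77, −3.83 and −3.63. With fetal triclosan they were −5.14, −3.66, −3.55 and −2.89. Replicate 1 was the lowest and replicate 4 the highest of these 8 arrays, while replicates 2 and 3 lay among the vehicle arrays. The difference was −0.13 (SE 0.36, 95% interval −0.92 to 0.66, limma adjusted p 0.832), and without fetal triclosan replicate 1 it was 0.31 (adjusted p 0.290). Without replicate 4 it was −0.44 (limma adjusted p 0.371). The SD between arrays was 0.16 with vehicle and 0.95 with triclosan.

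The cyclin-B1 probe had the same lowest and highest treated arrays as CDK1. Its levels were −0.98, −1.21, −0.85 and −0.88 with vehicle and −2.15, −0.73, −0.75 and −0.39 with triclosan. Fetal triclosan replicate 1 was far below all vehicle arrays, and the other 3 treated arrays were above all of them. The difference was −0.03 (SE 0.31, limma adjusted p 0.965), and without fetal triclosan replicate 1 it was 0.36 (SE 0.15, adjusted p 0.143). Without replicate 4 it was −0.23.

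TYMS stood at −3.06, −2.69, −2.88 and −3.19 with fetal vehicle. With fetal triclosan it stood at −4.13, −3.39, −3.10 and −2.51. Replicates 1 and 2 were below all vehicle arrays, replicate 3 was among them and replicate 4 was above them. The difference was −0.33 (SE 0.27, 95% interval −0.92 to 0.27, limma adjusted p 0.439), and −0.04 without fetal triclosan replicate 1. Without replicate 4 it was −0.58 (limma adjusted p 0.0883). The unnamed probe of the TYMS cluster read 0.01, 0.49, −0.01 and −0.00 with vehicle and −0.80, 0.05, 0.31 and 0.74 with triclosan. It had the same lowest and highest treated arrays, and a difference of −0.05 (SE 0.27, limma adjusted p 0.921).

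PCNA was the exception in having no overlap. At the probe starting at 801 the fetal vehicle arrays read 0.03, −0.12, −0.24 and −0.03, and the fetal triclosan arrays 0.13, 0.53, 0.16 and 0.77. All treated arrays were higher, which 9.03% of all probes with values also showed. The fold was 1.40 with a 95% interval of 0.14 to 0.83 on the log2 scale. The probe starting at 771 read −1.54, −1.71, −1.32 and −1.12 with vehicle and −1.54, −1.20, −1.15 and −0.62 with triclosan. There the groups overlapped, and the difference was 0.30 (SE 0.19, limma adjusted p 0.306). It was 0.13 without fetal triclosan replicate 4, the array alone on its slide, and 0.43 without replicate 1 (limma adjusted p 0.140). The call for the probe at 801 turned on small choices: with each array scaled to its median the difference was 0.70 (adjusted p 0.0186), without fetal triclosan replicate 1 it was 0.57 (adjusted p 0.0424), and without replicate 3 it was 0.56 (adjusted p 0.0339). Without replicate 4 the difference at 801 was smaller, at 0.36, and was not called.

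**Figure D1:**
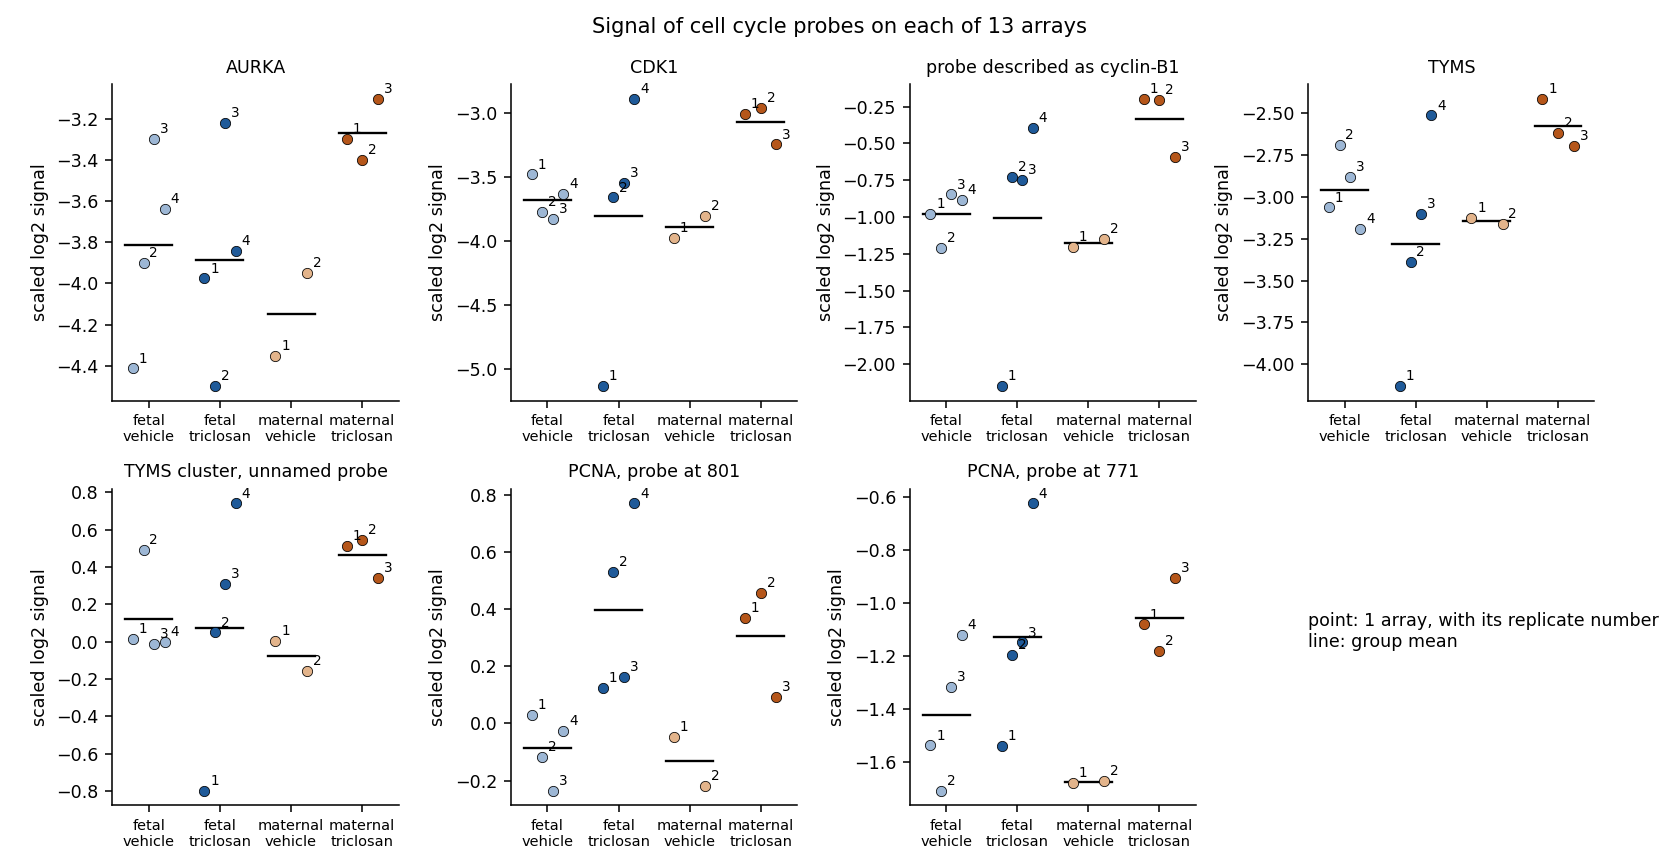
Scaled log2 signal (vertical axis) of the 5 probes, the cyclin-B1 probe and the unnamed probe of the TYMS cluster on each of 13 arrays, with the replicate number beside each point and a line at the group mean. Fetal triclosan replicate 1 is the lowest array for CDK1 (−5.14), the cyclin-B1 probe (−2.15), TYMS (−4.13) and the TYMS cluster (−0.80), and the maternal triclosan arrays lie above the maternal vehicle arrays in all panels.

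In the direct arm the slides gave both directions for CDK1 and AURKA and one direction for the TYMS probe and PCNA at 801. The unnamed TYMS cluster probe and PCNA at 771 did not keep one direction. Within slides 1, 2 and 3 the differences for CDK1 were −1.66, 0.11 and 0.18, and for AURKA 0.44, −0.60 and 0.25. For the TYMS probe they were −1.07, −0.70 and −0.06, below 0 on each slide, and for the unnamed probe of its cluster −0.81, −0.44 and 0.32. For PCNA at 801 they were 0.09, 0.65 and 0.29, and could only be above 0, because the groups did not overlap. PCNA at 771 gave −0.0007, 0.51 and 0.07. With the slide as a block the PCNA difference was 0.33 (limma adjusted p 0.106), TYMS had −0.57 (adjusted p 0.113), CDK1 −0.41 and AURKA 0.02. Those values rest on fetal triclosan replicates 1 to 3, because replicate 4 has no partner on its slide.

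The choice of scaling moved the whole array in the direct arm. The median difference of all probes was −0.09 after scaling to the 75th percentile and 0.13 after scaling to the median, and the calls changed from 935 higher and 1555 lower to 2174 higher and 946 lower. Relative to that median, the differences were 0.02 for AURKA, −0.04 for CDK1, −0.24 for TYMS and 0.58 for PCNA under either scaling. On the scale as computed, AURKA and CDK1 changed sign with the scaling, to 0.15 and 0.09 under the median.

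The indirect arm asks the same when the ewe receives triclosan. All 5 probes were higher in every maternal triclosan array than in either maternal vehicle array, as were the cyclin-B1 probe and the unnamed TYMS cluster probe. Such separation was common with 3 arrays against 2: 19.9% of all probes showed it in this direction and 19% in the other. The log2 differences ran from 0.44 for PCNA at 801 to 0.88 for AURKA, folds of 1.36 to 1.84. None of the 5 probes passed the limma test, and 0% of all 13740 probes did, the smallest adjusted p being 0.227. At an unadjusted p under 0.05 there were 2 of 5, AURKA and PCNA at 771, against 9.64% of all probes.

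AURKA stood at −4.35 and −3.95 in the maternal vehicle arrays. With maternal triclosan it stood at −3.30, −3.40 and −3.10. Replicate 3 was the highest of the 5 arrays and maternal vehicle replicate 1 the lowest. The difference was 0.88 (SE 0.36, n = 3 against 2, limma p 0.0313, adjusted p 0.492).

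CDK1 stood at −3.98 and −3.81 with maternal vehicle and at −3.01, −2.96 and −3.25 with maternal triclosan. The difference was 0.82 (SE 0.47, 95% interval −0.20 to 1.84, limma adjusted p 0.579). The maternal groups were tight, with SDs of 0.12 and 0.15, while the SE draws on all 4 groups, including the wide fetal triclosan group. With only the maternal arrays in the fit the SE was 0.15 and the adjusted p 0.240. The cyclin-B1 probe read −1.20 and −1.15 with vehicle against −0.20, −0.21 and −0.59 with triclosan. As for CDK1, replicate 3 was the lowest of the treated arrays, and the difference was 0.85 (SE 0.40, limma adjusted p 0.532).

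TYMS stood at −3.13 and −3.16 with maternal vehicle and at −2.41, −2.62 and −2.70 with maternal triclosan. The difference was 0.57 (SE 0.35, 95% interval −0.20 to 1.34, limma adjusted p 0.603). The unnamed probe of its cluster read 0.00 and −0.16 against 0.51, 0.55 and 0.34, a difference of 0.54 (SE 0.34, limma adjusted p 0.610). Both probes thus gave nearly the same difference.

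The PCNA probe at 801 read −0.05 and −0.22 with maternal vehicle against 0.37, 0.46 and 0.09 with maternal triclosan. The difference was 0.44 (SE 0.20, limma adjusted p 0.519). The probe at 771 read −1.68 and −1.67 against −1.08, −1.18 and −0.90. Its difference was 0.62 (SE 0.24, limma p 0.0265, adjusted p 0.480). The treated replicates came in different orders on these probes: replicate 3 was the lowest at 801 and the highest at 771.

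**Figure D2:**
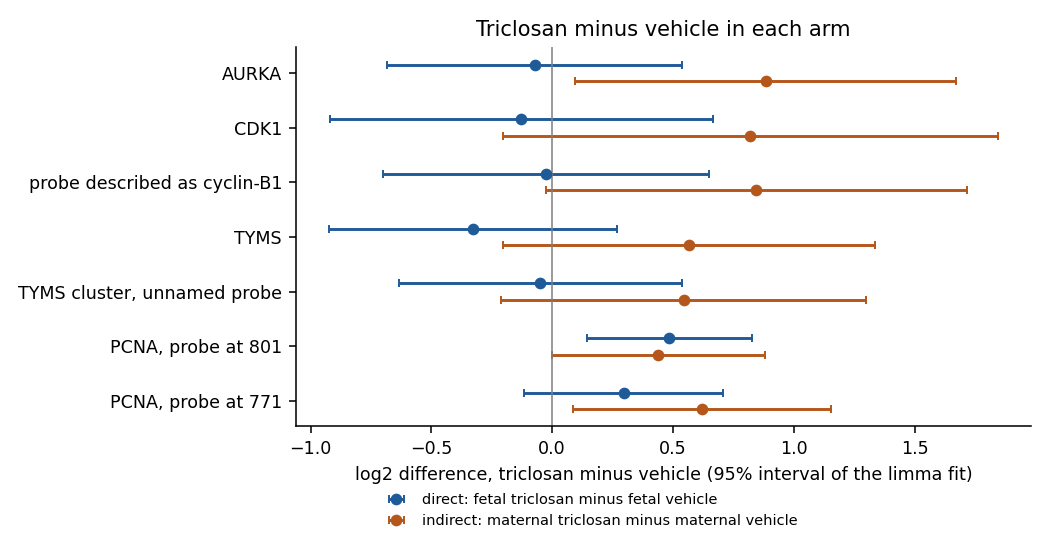
Log2 difference between triclosan and vehicle (horizontal axis) for each probe, with the 95% interval of the limma fit, for the direct arm (blue) and the indirect arm (orange). In the indirect arm all points lie to the right of 0, from 0.44 to 0.88, and in the direct arm the PCNA probes alone do (0.48 and 0.30).

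Every maternal triclosan array lay above both maternal vehicle arrays, so the indirect differences within a slide could only be above 0. Their direction there is no added result. On slides 1 and 2, which held both maternal groups, the differences were 1.06 and 0.55 for AURKA and 0.97 and 0.84 for CDK1. They were 0.71 and 0.54 for TYMS, and 0.42 and 0.68 for PCNA at 801. With the slide as a block the differences were 0.66, 0.78, 0.54 and 0.50 for AURKA, CDK1, TYMS and PCNA, and none was called in limma (PCNA adjusted p 0.239).

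The size of the indirect differences depended on the background correction for the 3 dim probes. With normexp correction of the raw spot signal, AURKA had 0.27, CDK1 0.23 and TYMS 0.28, and the maternal groups overlapped for CDK1 and TYMS. That correction moved the median of all probes to −0.15, so relative to it these differences were 0.41, 0.38 and 0.43. The brighter cyclin-B1 and TYMS cluster probes kept 0.76 and 0.55 under it, and PCNA at 801 kept 0.46. The authors' deposited values gave 0.80, 0.61, 0.47 and 0.50 for AURKA, CDK1, TYMS and PCNA.

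**Figure D3:**
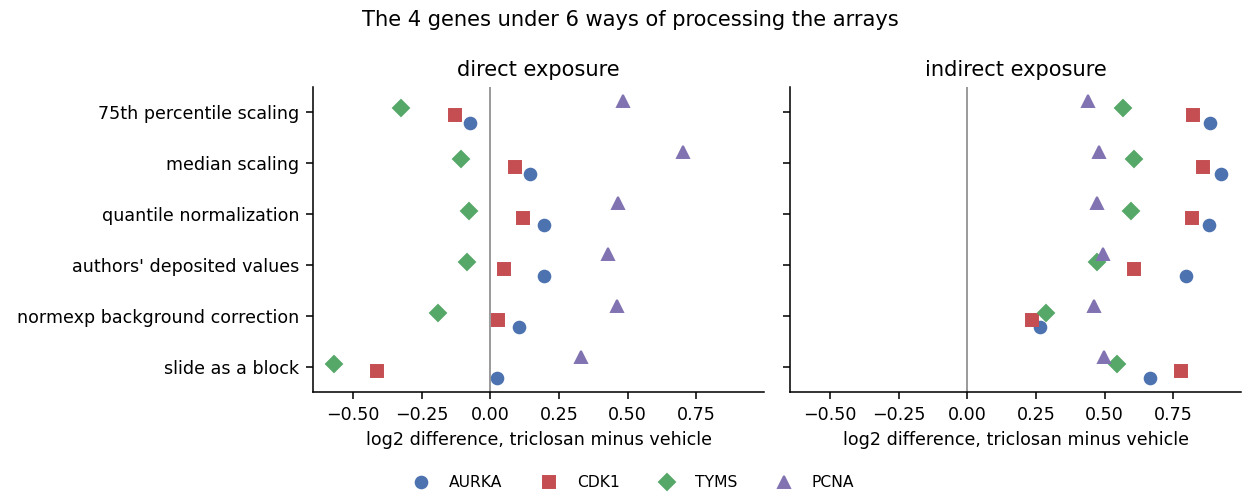
Log2 difference between triclosan and vehicle (horizontal axis) of the 4 genes under 6 ways of processing the arrays, for the direct arm (left) and the indirect arm (right), with PCNA read by its probe at 801. In the indirect arm all points lie above 0, with AURKA at 0.27 under normexp against 0.88 under scaling to the 75th percentile, and in the direct arm AURKA and CDK1 lie on either side of 0.

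Whether the arms differ was tested in the same fit. The direct minus the indirect difference was −0.96 for AURKA (SE 0.45, limma adjusted p 0.352), −0.95 for CDK1 (SE 0.59, adjusted p 0.447) and −0.89 for TYMS (SE 0.44, adjusted p 0.368). With normexp correction these were −0.16, −0.21 and −0.48, and −0.32, −0.36 and −0.63 relative to the median of all probes. Without fetal triclosan replicate 1 the value was −0.51 for CDK1 and −0.61 for TYMS, and without replicate 4 it was −1.26 and −1.15. For PCNA at 801 it was 0.04 (SE 0.25, 95% interval −0.51 to 0.60, adjusted p 0.942). None was called, and neither was any of the 13740 probes, of which 14.7% had an unadjusted p under 0.05. Between the vehicle groups, maternal minus fetal, the differences were −0.34 for AURKA, −0.21 for CDK1, −0.19 for TYMS and −0.05 for PCNA, all with a limma adjusted p of 0.999 and none with an unadjusted p under 0.05, against 3.27% of all probes. By group mean, CDK1 was highest with maternal triclosan (−3.07 ± 0.15, SD, n = 3), then with fetal vehicle (−3.68 ± 0.16, n = 4), fetal triclosan (−3.81 ± 0.95, n = 4) and maternal vehicle (−3.89 ± 0.12, n = 2). The last 3 of these means lay closer together than the SD of the fetal triclosan arrays. PCNA at 801 was highest with fetal triclosan (0.40 ± 0.31) and maternal triclosan (0.31 ± 0.19), followed by fetal vehicle (−0.09 ± 0.12) and maternal vehicle (−0.13 ± 0.12). The triclosan groups overlapped each other, as did the vehicle groups.

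The levels of these genes correlated to different degrees across the arrays, and differences between the correlations were not tested. The p-values here come from permutations and are adjusted over 21 pairs of probes. The permutations moved arrays freely across groups and slides, so shifts between groups or slides count toward these correlations. CDK1 and the cyclin-B1 probe had a Pearson r of 0.96 over 13 arrays (permutation p 2e-05, adjusted p 0.00042) and a Spearman rho of 0.84 (adjusted p 0.00604). Without the 2 arrays farthest from the median of CDK1, fetal triclosan replicates 1 and 4, r was 0.91. CDK1 and TYMS had an r of 0.89 (permutation p 0.00032, adjusted p 0.00168) and a rho of 0.71 (adjusted p 0.0271), and r was 0.67 without those arrays. TYMS and the unnamed probe of its cluster had an r of 0.92 (permutation p 7e-05, adjusted p 0.000735) and a rho of 0.82 (adjusted p 0.00604), and r was 0.83 without the 2 arrays farthest from the median of TYMS. CDK1 and PCNA at 801 had an r of 0.49 (permutation p 0.0890, adjusted p 0.145), a rho of 0.65 that passed the threshold (adjusted p 0.0423), and an r of 0.68 without the 2 farthest arrays. With PCNA at 771, r was 0.64 for CDK1 (permutation p 0.0182, adjusted p 0.0426, rho 0.77, adjusted p 0.0119) and 0.68 for the cyclin-B1 probe (permutation p 0.00878, adjusted p 0.0230, rho 0.83, adjusted p 0.00604), and 0.66 and 0.82 without the 2 farthest arrays. The PCNA probes had an r of 0.71 with each other (permutation p 0.00665, adjusted p 0.0199, rho 0.63, adjusted p 0.0470), and 0.54 without the 2 arrays farthest from the median of the first. Neither r nor rho passed for the TYMS probe with PCNA. At 801 r was 0.25 (permutation adjusted p 0.439, rho 0.23, adjusted p 0.471). At 771 r was 0.44 (permutation adjusted p 0.157, rho 0.41, adjusted p 0.188). For the unnamed probe of the TYMS cluster with PCNA at 801, rho passed, at 0.63 (permutation adjusted p 0.0470). Its r there was 0.48 (permutation adjusted p 0.147). With PCNA at 771 that probe had an r of 0.56 (permutation adjusted p 0.0988) and a rho of 0.53 (adjusted p 0.0869). For AURKA no r passed the threshold. Its r against CDK1 was 0.36 (permutation p 0.245, adjusted p 0.271, rho 0.43, adjusted p 0.176), 0.35 without the 2 arrays farthest from its median, 0.02 after the group means were removed and 0.41 after the slide means were. Its r was 0.46 with TYMS, 0.44 with the cyclin-B1 probe and 0.49 with PCNA at 771 (permutation adjusted p 0.157, 0.157 and 0.145), and 0.35, 0.53 and 0.53 without the 2 farthest arrays. The rho of 0.61 with PCNA at 771 passed (permutation adjusted p 0.0477), and with PCNA at 801 r was −0.02. After the group means were removed, r was 0.95 for CDK1 and the cyclin-B1 probe and 0.87 for CDK1 and TYMS. It was then lower for the PCNA probes with each other (0.46) and for AURKA with PCNA at 771 (0.32). For CDK1 it was higher with PCNA at 801 (0.70) and at 771 (0.69). Each slide held fewer than 6 arrays, so no r was computed within one.

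**Figure D4:**
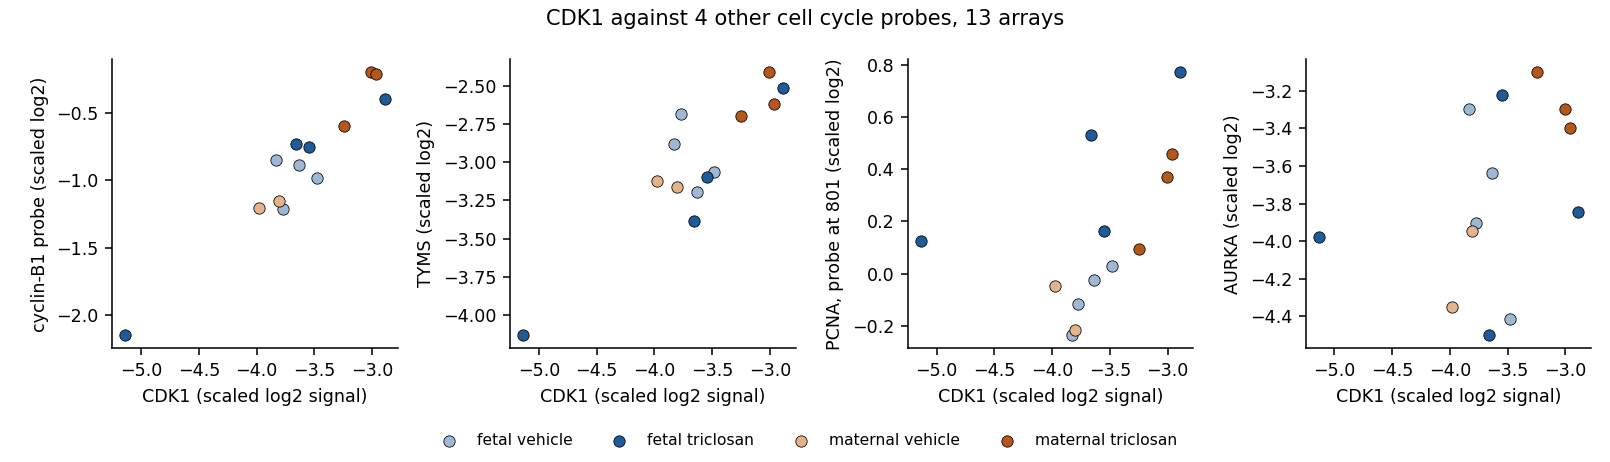
Scaled log2 signal of the cyclin-B1 probe, TYMS, PCNA at 801 and AURKA (vertical axes) against that of CDK1 (horizontal axis), where each point is one of 13 arrays coloured by group. The cyclin-B1 probe and TYMS follow CDK1 (r of 0.96 and 0.89), with fetal triclosan replicate 1 far to the lower left at −5.14, while AURKA scatters more (r of 0.36).

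The named genes whose levels were most like each member over the 13 arrays, out of 887 compared, are given as a description. For CDK1 they were CCNA2, the cyclin of S and G2 phase (r of 0.93), TYMS (0.89) and YBX1, a nucleic acid-binding protein (0.84). For TYMS they were CDK1 (0.89), CCNA2 (0.87) and YBX1 (0.83). CCNA2 had its lowest level, −5.49, on fetal triclosan replicate 1, the array on which CDK1 and TYMS were lowest, against −3.45 to −2.80 on the other fetal triclosan arrays. For AURKA they were GUCA2B, the precursor of the gut peptide uroguanylin (0.93), TERT, the catalytic part of telomerase (0.91), and SFTPB, a surfactant protein of the lung (0.89). These are dim probes, well above background on 12, 6 and 13 arrays, with highest processed signals of 87.4, 34.4 and 130. For PCNA they were LGALS15, a galectin (0.88), CHID1 (0.86) and BBC1 (0.85). CHID1 and BBC1 rose in the direct arm, by 0.52 (limma adjusted p 0.0179) and 0.49 (adjusted p 0.0146).

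Of 123 listed genes of the cell cycle, 15 had a kept probe matched to them by name, the 4 above included. Such genes are called measured here. Most probes of the array have no name, so a listed gene not counted may still have a probe. The cyclin-B1 probe is such a case: it has no matched name and is not among the 15. In the direct arm, each gene read by its brightest probe, 0 of 15 were called higher and 1 lower, against 6.8% and 11.3% of all probes, with a median difference of −0.13 against −0.09 over all probes. The one that fell was RPA1, a subunit of the protein that coats single-stranded DNA at the fork. Its levels were −3.33, −3.50, −3.62 and −3.47 with fetal vehicle and −4.14, −4.71, −4.67 and −3.79 with fetal triclosan, with no overlap. Of all probes with values, 12.7% were likewise lower without overlap. RPA1 fell by 0.84 (SE 0.21, limma adjusted p 0.0180), and the call was lost with quantile normalization, with normexp correction, in the authors' deposited values and without fetal vehicle replicate 1. The members of the replication list thus had values of both signs, with RPA1 at −0.84, TYMS at −0.33, DNMT1, which copies methylation onto new DNA, at −0.25, and PCNA at 0.48.

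Of 6 measured G1 and S phase cyclins and kinases, 0 were called in the direct arm. CCND3, a D-type cyclin, had −0.44 (SE 0.14, limma adjusted p 0.0507) with no overlap between the groups. Over the 4 cell cycle lists 2 of 15 genes were lower without overlap, against 12.7% of all probes. CDK2 had −0.24, CCND2 −0.20 and CCNA2 −0.37, and MYC, a transcription factor of growth, had 0.09 (−0.09 at its other probe). Of 3 measured brakes on the cycle, 0 were called at the brightest probe, where CDKN1B, the inhibitor p27 of the cyclin-dependent kinases, had 0.58 (SE 0.23, limma adjusted p 0.102). The other CDKN1B probe was called higher, at 0.69 (SE 0.21, limma adjusted p 0.0438), with overlapping groups. CDKN1C, a related inhibitor, had −0.09.

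In the indirect arm 0 of 15 cell cycle genes were called. Of these, 12 had a difference above 0, and 10 did not overlap between the groups in that direction (19.9% of all probes did not). The median was 0.28, and 0.23 over the 11 genes other than AURKA, CDK1, TYMS and PCNA, against 0.01 over all probes. CCNA2 had 0.53 and MYC 0.48, CDKN1B 0.42, CDK2 0.24 and DNMT1 0.23. The 3 genes below 0 were RPA1 (−0.50), CCND3 (−0.28) and CCND2 (−0.19), each without overlap, as for 19% of all probes in that direction. CCNA2 read −3.17 and −3.28 with maternal vehicle and −2.71, −2.68 and −2.71 with maternal triclosan, so its treated arrays were close together and higher, but its SE of 0.56 carries the spread of the fetal triclosan group. RPA1 had a negative value in both arms (limma adjusted p 0.567 in the indirect arm).

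**Figure D5:**
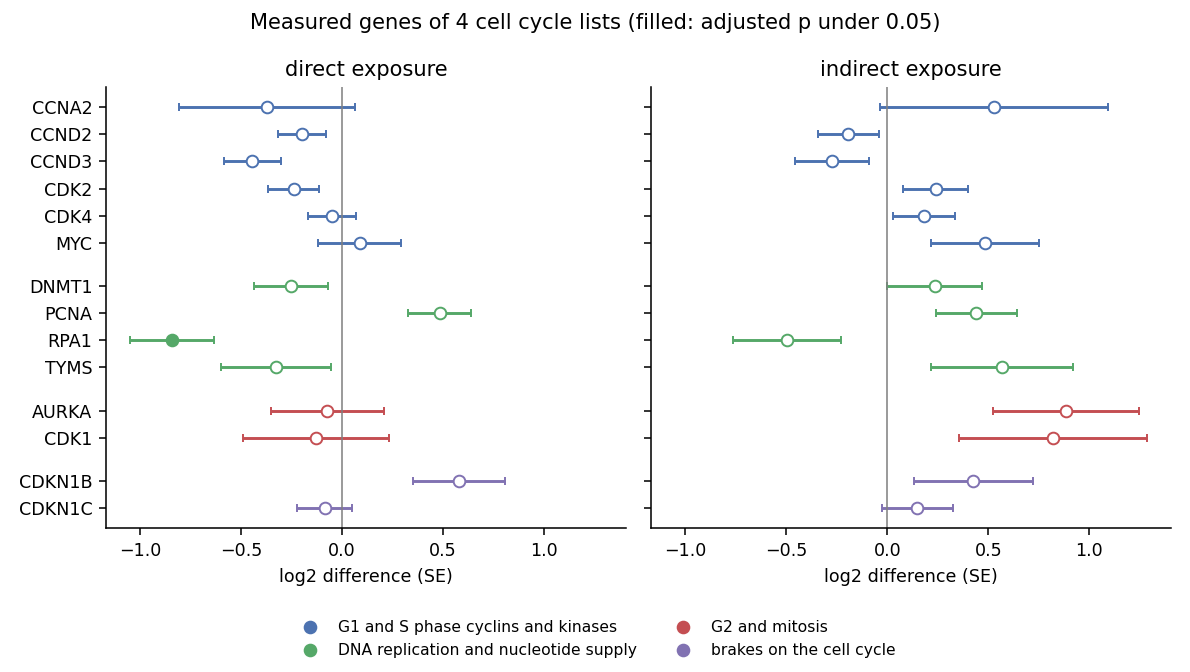
Log2 difference between triclosan and vehicle (horizontal axis) with its SE for 14 of the 15 measured genes of 4 cell cycle lists, in the direct arm (left) and the indirect arm (right), with a filled point for an adjusted p under 0.05. RPA1 (−0.84, direct arm) is the only filled point, and 11 of 14 points lie above 0 in the indirect arm against 3 of 14 in the direct arm.

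Markers of other cell types moved with some of these results, and their part in them was not tested. The 10 measured genes of hypothalamic neurons, out of 16 listed, had a mean level per array of −2.26 to −1.90 in the maternal vehicle arrays and −0.86 to −0.62 in the maternal triclosan arrays. Their median indirect difference was 1.06, with 10 of 10 above 0 and 0 called. In the direct arm their median difference was 0.98. Their mean level was −2.58 to −1.05 on the fetal vehicle arrays and −0.62 to −0.33 on 3 of the fetal triclosan arrays. On fetal triclosan replicate 4, the array with the highest CDK1, TYMS and PCNA in its group, it was −2.50, within the vehicle range. Of 12 neural progenitor genes 2 were measured. VIM, an intermediate filament of radial glia, had 0.26 in the direct and 0.51 in the indirect arm, and PAX6, a transcription factor of progenitors, had −0.50 and −0.34, with 0 called. Their mean level was 2.26 to 2.28 in the maternal vehicle arrays and 2.24 to 2.49 in the maternal triclosan arrays.

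Of 10 endothelial and pericyte genes 4 were measured, and 2 fell in the direct arm, KDR and FLT1, both receptors for vascular endothelial growth factor, where 11.3% of all probes fell. The other measured members were PECAM1, an adhesion molecule of endothelium, at −0.26 (limma adjusted p 0.358) and TIE1, an endothelial receptor, at 0.06 (adjusted p 0.815), both with overlap. KDR fell by 1.57 (limma adjusted p 0.00203), and FLT1 (adjusted p 0.00968) was well above background on all 4 fetal vehicle arrays but on 0 of the 4 treated ones. The other FLT1 probe had −1.18 (limma adjusted p 0.0884), and all 4 KDR probes were called lower. The mean level of the list was −3.60 to −3.16 with fetal vehicle and −4.32 to −3.99 with fetal triclosan, and −3.36 to −3.30 and −3.50 to −3.29 in the maternal groups. Of 7 astrocyte genes 3 were measured, with a median of −0.63 and 1 called lower in the direct arm (FGFR3, a growth factor receptor, −1.61, well above background on 3 of the 4 fetal triclosan arrays) and a median of −0.43 with 0 called in the indirect arm. These medians are the values of GFAP, a filament protein, which overlapped between the groups in both arms (direct limma adjusted p 0.242). AQP4, a water channel, went the other way, with 0.13 in the direct and 0.18 in the indirect arm. The erythroid list had 3 of 9 genes measured, with medians of 1.14 and 1.45. It had 1 call, AHSP, the chaperone of alpha globin, higher in the direct arm, where 6.8% of all probes were called higher. The other AHSP probe had 0.51 there (limma adjusted p 0.248), with overlapping groups. HBB, a globin, had 1.80 in the indirect arm at its brightest probe and −0.43 at its other probe. CA1 was well above background on only 1 array of each maternal group. The mean level of the erythroid list was −2.73 to −2.34 in the vehicle arrays and −2.03 to −0.87 in the triclosan arrays of the direct arm, and −3.66 to −2.73 and −2.22 to −1.85 in those of the indirect arm. The microglia and leukocyte list had 5 of 12 genes measured, with medians of −0.03 and 0.04, and 2 of 5 were above 0 in the direct arm. It had 1 call, ITGAM, an integrin of myeloid cells, lower in the direct arm, where 11.3% of all probes were called lower. The other ITGAM probe had −0.79 there (limma adjusted p 0.173), with overlapping groups. The pituitary list (5 of 7 measured) had medians of −0.09 and 1.14 and the choroid plexus list (2 of 4) 1.00 and −0.68, with 0 called in either. None of the 11 listed oligodendrocyte genes and none of the 8 general neuronal genes had a kept probe matched by name. Unnamed probes may read some of them.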

How the data were processed

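Cy3-labelled hypothalamic RNA was measured on 14 arrays, of which 13 were used. The authors deposited scanner files with spot intensity values, made per the file headers with Agilent Feature Extraction 10.1.1.1: raw spot means, local background medians, and processed signals from which background was subtracted with detrending inside each array. No scaling between arrays is recorded for them. The authors' deposited value table of 13899 probes appears to hold log2 values, with column medians from 8.78 to 8.80, and how it was scaled is not stated in the sources used here. The submitters' processing notes also name limma.

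Control spots and outlier spots were left out, and each array's 75th percentile was subtracted from its log2 processed signal. Probes well above background on 3 or more arrays were kept (13740 probes, 250 missing values). The fit was made in limma 3.58.1 (R 4.3.3), with group means, a two-sided moderated test, a threshold of 0.05 and 4 contrasts: direct, indirect, their difference, and the vehicle groups. It was tested on simulated data, where a log2 change of 1.5 was recovered for 82.5% of changed probes in the direct and 70% in the indirect contrast. The simulated probes were normal and independent of each other. That change is larger than the direct and indirect differences of the 4 genes in the fit, so recovery at their size was not measured. The number of arrays limits the precision. Python 3.11.15, pandas 2.3.3, numpy 2.4.6, scipy 1.17.1 and matplotlib 3.10.9 made the tables, permutation tests and plots.

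Names came from the files and a supplied RefSeq gene table: of 15008 probes, 703 matched by transcript, 484 by symbol, 125 by gene number and 20 by older symbol, 224 kept the file's name, 100 had only a locus number and 13352 no name. The probe with the highest mean stood for a gene, so PCNA is read at 801. Named are the probes of the 4 genes, the measured genes of 4 cell cycle lists and 10 cell type lists, and the 3 most correlated named genes of each member; 1 gene of these lists is counted but not reported here by name. The members, the lists and the tests were chosen with earlier results of these data known.

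The file headers gave the slides. The alternatives were other scalings, background correction with an offset of 50, filters, all 14 arrays, only the compared groups, blocks for slide and for replicate number, and leaving out each array.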

Additional observations from a re-analysis of the deposited data

Results flagged for a closer look

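For the unnamed probe of the TYMS cluster, fetal vehicle replicate 2 stood apart from the rest of its group, at 0.49 against 0.01, −0.01 and −0.00 in the other arrays on the scaled log2 scale. Its gap to the nearest array was 0.947 of the whole range of the group. The critical value it passed is one that chance passes in about 1 of 20 groups of this size. Both fetal groups of every probe shown were searched, so a flag somewhere among them is more likely than that. The TYMS probe itself was also highest on that array within the group (−2.69), without standing apart to this degree.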

How the results depend on the processing

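The 4 genes gave 384 alternative values over 4 comparisons, of which 26 had the opposite sign, 6 became calls and 0 lost one. The cause was not tested. Many of these values could not change sign. A difference of group means stays the same when an array outside its groups is left out, or when only its groups are fitted. It also stays the same under other filters and with outlier spots kept, because no spot of these genes carried an outlier mark. Where the groups do not overlap, leaving out an array cannot turn the sign either. That holds for all 4 genes in the indirect arm and for PCNA at 801 in the direct arm. In the indirect arm all alternatives, with those that could not change it, kept the direction for all 4 genes. None was called, with a smallest adjusted p of 0.203. Leaving out single arrays, where only the maternal ones can move the difference, gave 0.68 to 1.08 for AURKA, 0.73 to 0.91 for CDK1, 0.49 to 0.63 for TYMS and 0.35 to 0.55 for PCNA. In the direct arm PCNA ran from 0.33 to 0.70 and became a call with median scaling (0.70, adjusted p 0.0186), the stricter filter (0.48, adjusted p 0.0467) and all 14 arrays (0.48, adjusted p 0.0340). The fit to all 14 arrays counts maternal vehicle replicate 3, a mixture of replicates 1 and 2, as an array of its own. Its calls therefore rest on no added sample. Without single arrays the direct PCNA difference ran from 0.36 to 0.57 (adjusted p 0.0339 to 0.140). Direct TYMS kept its sign, at −0.57 to −0.08, and ran from −0.58 to −0.04 without single arrays (adjusted p 0.0883 to 0.911). Direct AURKA turned to 0.15 with median scaling, 0.20 with quantile normalization, 0.10 with normexp, 0.19 in the authors' values and 0.0222 with the slide block, and ran from −0.29 to 0.13 without single arrays. Direct CDK1 turned to 0.0894, 0.12, 0.0272 and 0.0476 under the first 4 of these, and ran from −0.44 to 0.31 without single arrays. The difference between arms ran from −0.97 to −0.16 for AURKA, −1.19 to −0.21 for CDK1 and −1.12 to −0.48 for TYMS (−1.18 to −0.75, −1.26 to −0.51 and −1.15 to −0.61 without single arrays). For PCNA it turned to −0.00862 with quantile normalization, −0.0669 in the authors' values, −0.17 with the slide block, −0.0311 with the replicate block and −0.14 with the mean of its probes, and ran from −0.0803 to 0.13 without single arrays. Between vehicle groups normexp turned AURKA to 0.13, CDK1 to 0.21 and TYMS to 0.0456, and PCNA ran from −0.13 to 0.0394 without single arrays. All probes called in the direct arm numbered 2490, against 1275 from the fetal groups alone and 1214 to 2951 without single arrays (1640 without fetal vehicle replicate 1, 1214 without replicate 3). In the indirect arm the count was 0, 12 with all 14 arrays (the mixture included) and 0 to 2 without single arrays. Between arms the count was 0, 1 with quantile normalization, 4 with all 14 arrays (the mixture included) and 0 to 12 without single arrays, and between vehicle groups 0 to 2. Of the cell cycle genes, 0 to 2 were called higher and 0 to 2 lower in the direct arm, and none in the other comparisons.

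The replicate numbers were not taken to pair the samples: arrays numbered 1 to 4 in the fetal groups had correlations of 0.13, 0.12, 0.26 and −0.17 in their deviations, and not every array correlated best with its own number. Numbers 1 to 3 marked a shared slide, and the arrays numbered 4 lay on different slides. On shared slides the correlations were 0.46 and 0.14 between the vehicle groups and −0.08 for both numbers between the maternal groups. With the replicate block, PCNA in the direct arm had an adjusted p of 0.0362 and 2824 probes were called. The 3 dim probes (AURKA, CDK1 and TYMS) were well above background on all arrays used, at processed signals from 45.5 to 334. The indirect arm has 2 vehicle arrays.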
